A study of Mus musculus with 16 samples.

Results

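In order to describe how receptors and growth effectors of injured sensory neurons behave under nerve injury and under desipramine, 10 genes were followed through every library: Ecel1, Gpr151, Cckbr, Sprr1a, Gap43, Gadd45a, Flrt3, Sema6a, Stmn4 and Chl1. They are genes known to mark axotomized or regrowing neurons, and they were selected on their measured levels in the injured and sham-operated saline mice of these data, so those levels are given below as a description without a test. All 10 matched 1 gene each among the 52636 Ensembl genes counted, and all 10 passed the filter on low counts, as did 21371 genes in all.

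The libraries came from lumbar L3-6 dorsal root ganglia (DRG), the ganglia that hold the cell bodies of sensory neurons, of 16 male C57Bl6/J mice aged 3 to 4 months, with 1 mouse per library and 4 mice per group. Mice received tibial spared nerve injury (SNI), in which the common peroneal and sural branches of the sciatic nerve are cut and the tibial branch is left, or sham surgery, and then 15 mg/kg of the tricyclic antidepressant desipramine (DMI) or saline, injected intraperitoneally 2 times a day for 3 weeks. The saline groups are called Sham-Saline and SNI-Saline here, and the treated groups Sham-DMI and SNI-DMI. By the labels and by the study's abstract, results and supplement, treatment began 4 weeks after the operation. Only the study's methods give 4 months. No transgene or induced deletion is named for any group. The ganglia pooled neurons whose axons were cut with neurons whose axons were spared, along with glia, immune cells and vessels, and in such bulk RNA fewer cells of a type and less RNA per cell cannot be told apart.

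A sensory neuron whose peripheral axon has been cut switches on a growth program: it alters its receptors and peptides, makes growth-cone and cytoskeletal proteins, and changes the adhesion and guidance molecules on its surface. Among the 10 genes, Ecel1 encodes a neuronal endopeptidase, and Gpr151 and Cckbr encode G protein-coupled receptors. Sprr1a, Gap43, Stmn4 and Gadd45a encode proteins of axon outgrowth, microtubules and the stress response, and Flrt3, Sema6a and Chl1 encode surface proteins of adhesion and guidance.

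Between 41194238 and 73920332 reads per library were counted on genes. Although the tissue label reads spinal cord, the summed level of 10 DRG neuron markers was 5821 to 6816 CPM (counts scaled by library size) in every library, against 14.1 to 27.4 CPM for 8 spinal cord markers, of which Mnx1, Chat, Olig2 and Slc6a5 did not pass the filter. The library numbers run from 17 to 24 in the DMI mice and from 33 to 40 in the saline mice. What these numbers stand for is not said in the labels. Anything that goes with them cannot be told apart from the drug. In the Sham-DMI group, replicates 2 and 4 stood above replicates 1 and 3 in 7 of 8 injury genes scored (Ecel1, Gpr151, Cckbr, Sprr1a, Atf3, Npy and Nts), the exception being Stmn4, which was, like Gap43 and Gadd45a, highest in replicate 1. Among those of the 10 genes that were not scored, Flrt3 and Chl1 also followed this order. Gap43, Gadd45a and Sema6a (18, 23.2, 23.1 and 21.1 CPM in replicates 1 to 4) did not. The share of all genes with this order was not computed. On a scale where the Sham-Saline mean is 0% and the SNI-Saline mean is 100%, Atf3, a transcription factor of injured neurons, stood at 24.2% and 27.1% in replicates 2 and 4, and Npy, a neuropeptide of injured neurons, at 17.8% and 12.6%. For the 10 genes, results that rest on this group are therefore also given without both libraries, and for the other genes where this ends a call. Since high levels of injury genes singled out these libraries, leaving them out moves such genes in a direction set by that choice.

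Per kilobase of exon the 10 genes covered a wide range of levels in uninjured ganglia. In Sham-Saline mice Gap43 stood far above the rest at 156 ± 6.95 CPM per kilobase (SD, n = 4), followed by Stmn4 at 11.2 ± 0.808, Gadd45a at 9.97 ± 0.496, Chl1 at 9.11 ± 0.754, Flrt3 at 4.97 ± 0.709 and Sema6a at 2.33 ± 0.133. The lowest levels per kilobase were those of Sprr1a (1.43 ± 0.779), Gpr151 (0.904 ± 0.222), Ecel1 (0.536 ± 0.122) and Cckbr (0.216 ± 0.00636). In this order the single mice overlapped between Stmn4 and Gadd45a, between Gadd45a and Chl1, between Sema6a and Sprr1a, and between Sprr1a and Gpr151. In SNI-Saline mice the order changed at its lower end: Sprr1a took the second place at 54.4 ± 2.47 CPM per kilobase, below Gap43 at 205 ± 12.4, and Ecel1 (4.81 ± 0.689) and Gpr151 (4.1 ± 0.312) stood above Sema6a (3.23 ± 0.12) and Cckbr (2.36 ± 0.24). Only Ecel1 and Gpr151 overlapped as neighbours there.

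**Figure D1:**
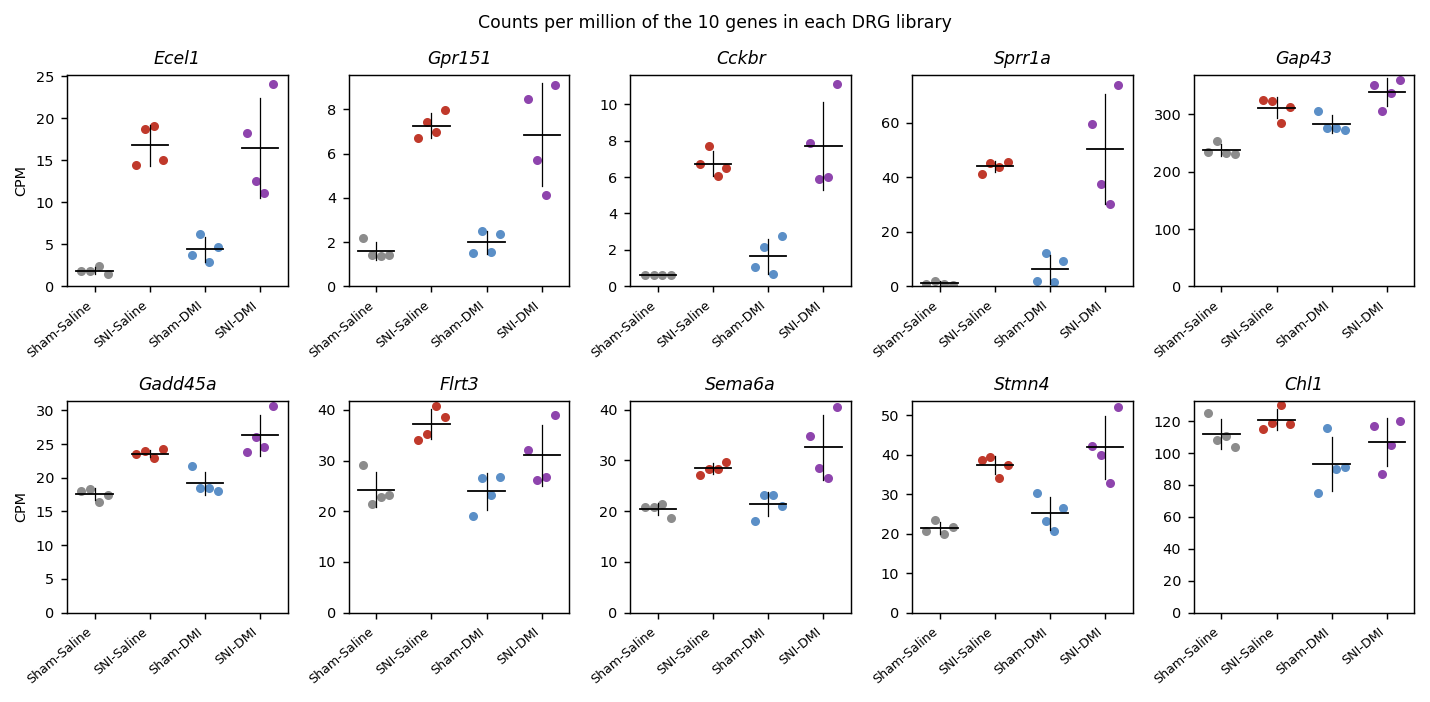
Level of the 10 genes in each of the 16 libraries, in CPM on linear axes that start at 0. Points are single mice in replicate order, horizontal lines are group means and vertical lines are ± 1 SD (n = 4). In 9 of 10 genes the 4 SNI-Saline mice lie above the 4 Sham-Saline mice, Chl1 being the exception, and the vertical lines are longer in SNI-DMI than in SNI-Saline.

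Ecel1 (ENSMUSG00000026247, GRCm38 chromosome 1, 87147655 to 87156521, minus strand) belongs to the neprilysin family of metallopeptidases and is known as a gene that damaged neurons switch on. Its level was 1.79, 1.82, 2.46 and 1.43 CPM in the Sham-Saline mice and 14.4, 18.7, 19.1 and 15.1 CPM in the SNI-Saline mice, so the lowest injured mouse stood well above the highest sham mouse. The fitted difference was 3.16 on the log2 scale (95% interval 2.62 to 3.71), or 8.96-fold. Under DMI the level was 3.79, 6.29, 2.85 and 4.65 CPM after sham surgery and 18.3, 12.5, 11.1 and 24.1 CPM after SNI. Each Sham-DMI mouse exceeded each Sham-Saline mouse, whereas the SNI-DMI mice spanned a wider range than the SNI-Saline mice on both sides.

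Gpr151 (ENSMUSG00000042816, chromosome 18, 42577881 to 42579652, minus strand) encodes an orphan receptor. Sham-Saline mice had 2.19, 1.43, 1.39 and 1.4 CPM and injured saline mice 6.72, 7.41, 6.96 and 7.98 CPM, a difference of 2.19 on the log2 scale. The DMI mice had 1.52, 2.5, 1.57 and 2.38 CPM after sham surgery and 8.47, 5.73, 4.12 and 9.09 CPM after SNI. Cckbr (ENSMUSG00000030898, chromosome 7, 105425731 to 105470898, plus strand) encodes the B-type receptor for the peptides cholecystokinin and gastrin. In Sham-Saline it was almost constant, at 0.643, 0.607, 0.623 and 0.604 CPM, and in SNI-Saline it was 6.72, 7.69, 6.07 and 6.48 CPM, 10.9-fold higher (log2 difference 3.44, 95% interval 2.77 to 4.11). The Sham-DMI mice had 1.06, 2.18, 0.674 and 2.74 CPM and the SNI-DMI mice 7.88, 5.88, 6 and 11.1 CPM. The Sham-DMI values thus fell into a lower pair close to Sham-Saline (replicates 1 and 3) and a higher pair (replicates 2 and 4).

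Sprr1a (ENSMUSG00000050359, chromosome 3, 92483952 to 92485895, minus strand) encodes a small proline-rich protein known from the cornified envelope of keratinocytes and from axotomized sensory neurons, where it is found in regrowing axons. It had the largest ratio between groups of the 10 genes. The Sham-Saline mice held 0.939, 2.06, 0.982 and 0.619 CPM and the SNI-Saline mice 41.1, 45.2, 43.7 and 45.5 CPM, 37.6-fold more (log2 difference 5.23, 95% interval 4.10 to 6.37). In the DMI mice it was 1.81, 12.2, 1.67 and 9.19 CPM after sham surgery and 59.3, 37.6, 30.1 and 73.9 CPM after SNI. The summed level of 7 keratinocyte markers was 3.88 to 6.64 CPM in all 16 libraries, and Krt5, Ivl and Flg did not pass the filter.

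The promoters of the 3 genes with the largest differences are shown because these genes moved together with Atf3, whose product binds CRE and AP-1 sites. RefSeq promoters (GRCm38.p6, 250 bases before to 50 bases after the start) were given for 6 of the 10 genes: Ecel1, Cckbr, Sprr1a, Gadd45a, Flrt3 and Chl1. They were searched on both strands for the CRE letters TGACGTCA and the AP-1 letters TGACTCA, which read TGAGTCA on the other strand. None of the 6 held the CRE letters, which 1.79% of 32851 promoters of this length held. Only Sprr1a held the AP-1 letters, which 5.2% of all promoters held, with 2 matches that begin 146 and 116 bases before the start. The 250 bases before the start are printed 5′ to 3′ on the gene's strand, with the AP-1 letters in capitals, for Sprr1a at chr3:92485882-92486131 (minus strand), Cckbr at chr7:105425481-105425730 (plus strand) and Ecel1 at chr1:87156357-87156606 (minus strand). The starts are those of RefSeq and differ in part from the ends of the GENCODE genes given here. By the GENCODE places, the Ecel1 stretch and the end of the Sprr1a stretch lie inside the gene in part, and the Chl1 promoter wholly. The search holds for these starts only. A match describes the letters and is not a measured binding site.
Sprr1a: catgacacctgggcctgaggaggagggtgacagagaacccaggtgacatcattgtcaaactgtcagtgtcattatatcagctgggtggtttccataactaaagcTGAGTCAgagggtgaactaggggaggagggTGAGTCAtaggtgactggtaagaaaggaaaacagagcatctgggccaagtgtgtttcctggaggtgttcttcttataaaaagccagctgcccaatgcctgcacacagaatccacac
Cckbr: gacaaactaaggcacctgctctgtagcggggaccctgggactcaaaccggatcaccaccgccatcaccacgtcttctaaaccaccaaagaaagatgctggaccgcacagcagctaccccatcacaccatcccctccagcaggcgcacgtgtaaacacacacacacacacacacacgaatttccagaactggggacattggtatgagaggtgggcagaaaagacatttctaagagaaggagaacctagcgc
Ecel1: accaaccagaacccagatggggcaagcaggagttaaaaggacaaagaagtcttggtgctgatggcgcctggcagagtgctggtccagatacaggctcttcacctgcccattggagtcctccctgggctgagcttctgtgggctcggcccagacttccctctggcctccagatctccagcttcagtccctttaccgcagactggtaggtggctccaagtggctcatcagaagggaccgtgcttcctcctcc

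Gap43 (ENSMUSG00000047261, chromosome 16, 42248442 to 42340651, minus strand), the growth-associated membrane protein of growth cones, was already abundant without injury. The Sham-Saline mice held 235, 254, 232 and 231 CPM and the injured saline mice 326, 323, 285 and 313 CPM, a difference of 0.39 on the log2 scale, or 1.31-fold. The Sham-DMI mice had 306, 276, 277 and 273 CPM, all above the Sham-Saline mice, and the SNI-DMI mice 351, 306, 338 and 360 CPM. Stmn4 (ENSMUSG00000022044, chromosome 14, 66344296 to 66361680, plus strand) encodes a stathmin, a tubulin-binding regulator of microtubules. In the saline mice its mean was 21.4 ± 1.55 CPM after sham surgery and 37.4 ± 2.25 CPM after SNI, 1.74-fold more, and in the DMI mice 25.2 ± 4.17 and 41.8 ± 7.89 CPM (SD, n = 4). Gadd45a (ENSMUSG00000036390, chromosome 6, 67035096 to 67037457, minus strand) encodes a stress sensor induced by DNA damage. The corresponding means were 17.6 ± 0.874, 23.6 ± 0.552, 19.2 ± 1.7 and 26.3 ± 3.07 CPM, with SNI-Saline 1.34-fold above Sham-Saline. Its exons overlap those of E230016M11Rik on the other strand, and the sources used here do not state whether strand was used in counting, so its values are uncertain.

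Among the adhesion and guidance genes, Flrt3 and Sema6a were higher in the injured saline mice and Chl1 overlapped between the saline groups. Flrt3 (ENSMUSG00000051379, chromosome 2, 140650914 to 140671469, minus strand, inside Macrod2, which lies on the opposite strand) encodes a leucine-rich repeat protein that binds Unc5 receptors and latrophilins. After sham surgery it was 29.2, 21.5, 22.8 and 23.2 CPM with saline and 19.1, 26.6, 23.2 and 26.7 CPM with DMI. After SNI it was 34.1, 35.2, 40.7 and 38.5 CPM with saline and 32.1, 26.1, 26.8 and 39 CPM with DMI. In 3 of the 4 SNI-DMI mice it lay below every SNI-Saline mouse. Sema6a (ENSMUSG00000019647, chromosome 18, 47235598 to 47368870, minus strand), a transmembrane semaphorin that binds A-type plexins, was 20.4 ± 1.16 CPM after sham surgery and 28.4 ± 1.06 CPM after SNI in saline mice (1.39-fold), and 21.4 ± 2.42 and 32.6 ± 6.4 CPM in DMI mice (SD, n = 4). Chl1 (ENSMUSG00000030077, chromosome 6, 103510586 to 103750211, plus strand), an adhesion molecule of the L1 family, did not separate the saline groups: it was 125, 108, 111 and 104 CPM after sham surgery and 115, 119, 130 and 118 CPM after SNI, a log2 difference of 0.11 (95% interval -0.12 to 0.34). The difference was 0.32 once trends on GC content and exon length had been removed. In these libraries the levels of Chl1 thus do not by themselves carry the mark of injury under which it was listed. The Sham-DMI mice had 75, 116, 90.1 and 91.5 CPM and the SNI-DMI mice 117, 86.8, 105 and 120 CPM.

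In SNI-Saline versus Sham-Saline, the contrast behind the choice of the genes, 9 of 10 had all 4 injured mice above all 4 sham mice, which held for 7.67% of all genes tested. Across all genes 12% were called in this contrast, a call being an adjusted p under 0.1 in edgeR's quasi-likelihood test with Benjamini-Hochberg adjustment. The median log2 difference was 0.71 over the 10 genes and -0.0006 over all genes, and nothing is read from these counts, as the same values chose the genes.

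SNI-DMI versus Sham-DMI asked whether the genes were also higher after injury in treated mice. Its fold changes share no library with the saline contrast, but its p-values use a spread estimated over all 16 libraries, the saline ones that chose the genes included. The genes were also chosen with earlier results of these data known, so this contrast is not an independent check. All 10 had a higher mean after SNI and 8 were called higher, against 0.374% of all genes called higher and 0.402% called in either direction (edgeR quasi-likelihood test, adjusted p under 0.1). In 7 of 10 all SNI-DMI mice lay above all Sham-DMI mice, which held for 2.89% of all genes. The log2 rise of Ecel1 was 1.90 (SE 0.241, adjusted p = 0.00211), that of Gpr151 1.77 (SE 0.229, adjusted p = 0.00211), that of Cckbr 2.18 (SE 0.291, adjusted p = 0.0026) and that of Sprr1a 2.97 (SE 0.453, adjusted p = 0.0067), which is 3.41-fold to 7.81-fold. Among the growth and guidance genes, Stmn4 rose by 0.72 (adjusted p = 0.0116), Gadd45a by 0.45 (adjusted p = 0.0163), Sema6a by 0.61 (adjusted p = 0.0208) and Gap43 by 0.26 (adjusted p = 0.0927). Flrt3 (0.37, adjusted p = 0.258) and Chl1 (0.20, adjusted p = 0.473) did not pass the test, although Chl1 did with GC content and length trends removed (0.30, adjusted p = 0.0846). The median log2 difference was 0.67 over the 10 genes and 0.0007 over all genes.

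The peptidase, both receptors, Sprr1a, Stmn4 and Sema6a kept their calls whichever single library was left out. The call of Gap43 was lost on leaving out any 1 of 10 libraries (Sham-Saline 2, 3 or 4, SNI-Saline 1 or 4, Sham-DMI 2, 3 or 4, or SNI-DMI 1 or 4), with an adjusted p of 0.0244 to 0.317, and that of Gadd45a without Sham-DMI replicate 3 (adjusted p = 0.118, range 0.00783 to 0.118). Without both Sham-DMI replicates 2 and 4, 4 genes were called, with differences of 2.31 for Ecel1, 2.15 for Gpr151, 3.12 for Cckbr and 4.84 for Sprr1a (adjusted p of 0.00219, 0.00368, 3.33e-05 and 3.33e-05). In Sham-DMI these genes stood highest in the libraries left out, so larger differences were fixed by that choice and are no check of the calls. The other calls were lost while the differences stayed close to those above, at 0.67 for Sema6a, 0.71 for Stmn4, 0.39 for Gadd45a and 0.22 for Gap43 (adjusted p of 0.111, 0.131, 0.227 and 0.411). In a fit of only the 8 libraries compared, which uses no saline library, 2 of the 10 were called, Ecel1 and Gpr151 (adjusted p = 0.0611 each), and Cckbr and Sprr1a had an adjusted p of 0.131 and 0.154.

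**Figure D2:**
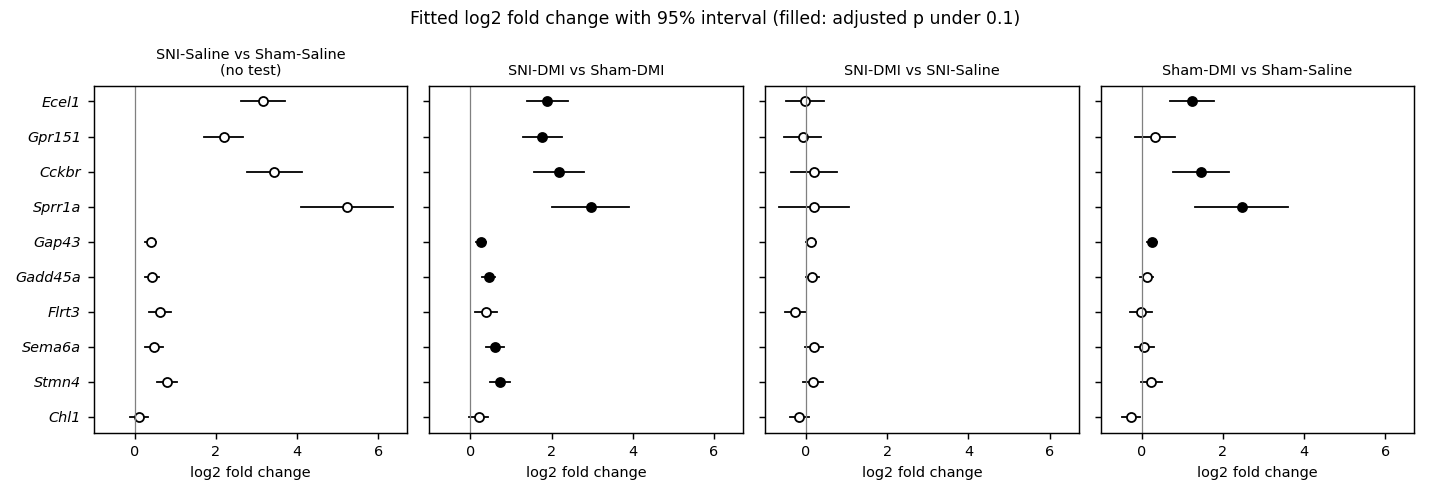
Fitted log2 fold change (points) with its 95% interval (lines) of the 10 genes in 4 contrasts, on a shared linear axis. Filled points passed an adjusted p of 0.1 in edgeR, and the left panel shows the contrast that chose the genes and was not tested. From the second panel on, 8, 0 and 4 points are filled.

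SNI-DMI versus SNI-Saline asked whether the genes differed between treated and untreated injured mice. None of the 10 was called, by edgeR or by DESeq2, none had a nominal p under 0.05, and in each the groups overlapped, while 2.93% of all genes were called. This contrast shares the SNI-Saline libraries with the one that chose the genes. The log2 differences ran from -0.26 for Flrt3 (adjusted p = 0.279) to 0.20 for Sema6a (adjusted p = 0.319). For Ecel1 the difference was -0.03 with a 95% interval of -0.50 to 0.45, for Gpr151 -0.08 (-0.54 to 0.37), for Cckbr 0.19 (-0.37 to 0.76) and for Sprr1a 0.20 (-0.66 to 1.05). These intervals do not show equal levels: that of Sprr1a reaches from 0.633-fold to 2.07-fold. For Gap43 the interval of -0.01 to 0.24 is narrower.

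The SNI-DMI mice varied widely in these genes. Their SD of log2 CPM had a median of 0.275 over the 10 genes, against 0.136 over all genes in the same mice. In SNI-Saline the median was 0.0891 over the 10 genes and 0.133 over all genes. The wide spread was not particular to injured mice: in Sham-DMI the median was 0.248 over the 10 genes and 0.181 over all genes. In Sham-Saline it was 0.11 and 0.137. The SD was larger in Sham-DMI than in Sham-Saline for 10 of 10 genes, as for 64.8% of all genes, with the same limit as given next. The SD was larger in SNI-DMI than in SNI-Saline for 10 of 10 genes, as for 49.7% of all genes, but the SNI-Saline libraries chose the genes, which favours a small spread there, and nothing is read from this count. For Sprr1a it was 0.0666 in SNI-Saline and 0.593 in SNI-DMI, and for Gpr151 0.108 and 0.528. The mice were ordered alike: SNI-DMI replicate 4 held the highest value in 10 of 10 genes, which it did in 24.3% of all genes, and the lowest value fell on replicate 3 in 5 genes, on replicate 2 in 4 and on replicate 1 in 1. The mean log2 CPM of the 10 genes was 5.16, 4.82, 4.73 and 5.41 in the SNI-DMI mice and 4.96, 5.07, 5.01 and 5.03 in the SNI-Saline mice. The 10 genes moved together between mice and are not 10 independent observations, and no test of the spread was made. The DRG neuron markers summed to 6096 CPM in replicate 4, below the 6246 to 6461 CPM of replicates 1 to 3, and the skeletal muscle markers to 268 CPM in replicate 2, against 2.65 CPM in the lowest SNI-DMI library. Macrophage markers summed to 134, 84.1, 74.1 and 112 CPM in replicates 1 to 4, satellite glia markers to 2885, 2524, 2690 and 2895 CPM and fibroblast markers to 654, 467, 518 and 598 CPM, each higher in replicates 1 and 4 than in replicates 2 and 3, as the mean of the 10 genes was. Schwann markers (5650, 4505, 4977 and 5535 CPM) and endothelial markers (91.8, 79.2, 89.7 and 95.4 CPM) showed the same. Neutrophil markers went the other way, at 10.4, 13.4, 13.7 and 4.45 CPM. So did DRG neuron markers (6246, 6461, 6361 and 6096 CPM) and skeletal muscle markers (2.96, 268, 3.43 and 2.65 CPM). Keratinocyte markers (5.79, 6.4, 5.36 and 6.27 CPM) and spinal cord markers (17, 15.7, 20 and 18 CPM) followed neither pattern. The part of any of these cells in the spread was not tested.

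**Figure D3:**
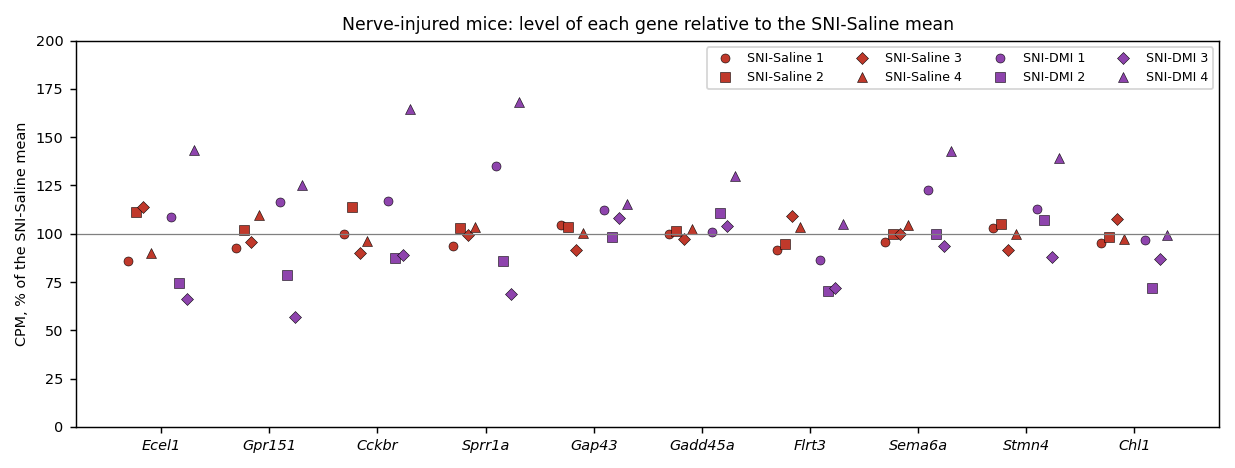
Level of each gene in the 8 nerve-injured mice, as a percentage of the SNI-Saline mean of that gene, on a linear axis from 0. Red symbols are SNI-Saline mice, purple symbols are SNI-DMI mice, and the shape gives the replicate. The purple triangle, SNI-DMI replicate 4, is the highest SNI-DMI mouse in 10 of 10 genes.

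Sham-DMI versus Sham-Saline asked what DMI did without nerve injury. Of the 10 genes 4 were called higher, against 11.6% of all genes called higher and 23.4% called in either direction. The log2 difference was 2.46 for Sprr1a (SE 0.544, adjusted p = 0.00667), 1.46 for Cckbr (SE 0.326, adjusted p = 0.00701), 1.24 for Ecel1 (SE 0.257, adjusted p = 0.00492) and 0.25 for Gap43 (SE 0.0593, adjusted p = 0.00957). In 3 of 10, Ecel1, Cckbr and Gap43, all Sham-DMI mice lay above all Sham-Saline mice, which held for 8.62% of all genes. The contrast shares the Sham-Saline libraries with the one that chose the genes, in which they were low. Gpr151 (0.33, adjusted p = 0.369), Stmn4 (0.24, adjusted p = 0.187), Gadd45a (0.13, adjusted p = 0.294), Sema6a (0.06, adjusted p = 0.737) and Flrt3 (-0.02, adjusted p = 0.954) did not pass the test. Stmn4 passed it without Sham-DMI replicate 3 (adjusted p = 0.0737).

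The calls of Sprr1a and Cckbr rested on replicates 2 and 4. On the scale from the Sham-Saline mean (0%) to the SNI-Saline mean (100%), Sprr1a stood at 25.9% and 18.8% in these mice and at 1.55% and 1.23% in replicates 1 and 3, and Cckbr at 25.5% and 34.7% against 7.18% and 0.898%. Without both libraries, Sprr1a differed by 0.61 (adjusted p = 0.392) and Cckbr by 0.54 (adjusted p = 0.197), whereas Ecel1 (0.86, adjusted p = 0.0467) and Gap43 (0.32, adjusted p = 0.008) kept their calls. In Sham-DMI, Sprr1a, Cckbr and Ecel1 stood highest in the libraries left out, so smaller differences were fixed by that choice. Over the other alternatives named below the adjusted p of Sprr1a was as low as 0.000319 and that of Cckbr as low as 0.000792. Chl1 was lower in Sham-DMI by -0.27 (adjusted p = 0.108), was called lower by DESeq2 (-0.25, adjusted p = 0.0835), under both other filters on low counts, without Sham-DMI replicate 2 or SNI-DMI replicate 2 (adjusted p down to 0.0116) and without both Sham-DMI libraries (-0.42, adjusted p = 0.018), and was higher by 0.05 once trends on GC content and exon length had been removed.

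**Figure D4:**
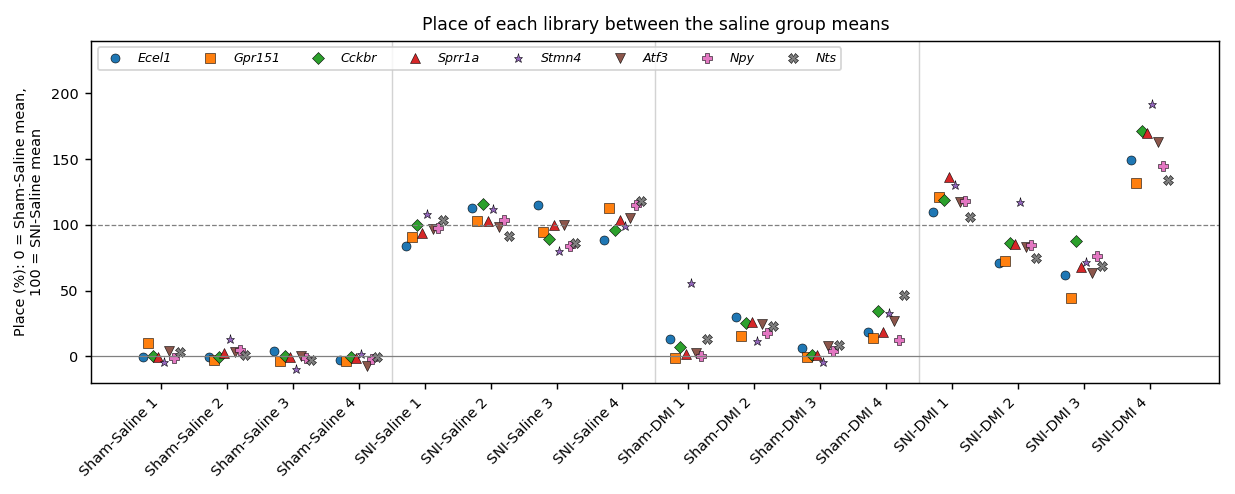
Place of each library between the Sham-Saline mean (0%) and the SNI-Saline mean (100%), on a linear axis, for 5 of the 10 genes and for Atf3, Npy and Nts. Symbols stand for genes. Sham-DMI replicates 2 and 4 lie above replicates 1 and 3 for each gene but Stmn4, which lies at 55.8%, 11.8%, -4.64% and 32.6% in replicates 1 to 4, and SNI-DMI replicate 4 lies highest for all 8 genes.

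The injury effect in treated mice was compared with that in saline mice as a difference of differences. None of the 10 genes was called, as 0% of all genes were by edgeR, with 1692 of all genes under a nominal p of 0.05 and 16 called by DESeq2. The contrast subtracts the saline injury effect that chose the genes, a choice that pushes it below 0, so the values of the 10 genes are a description. At a nominal p under 0.05 the injury effect was smaller under DMI for 3 of 10 genes, Ecel1 (-1.27), Sprr1a (-2.27) and Cckbr (-1.26), against 3.98% of all genes, and nothing is read from this count. Each had an adjusted p of 0.619 in edgeR. In all 3 the Sham-DMI level was above Sham-Saline, and the SNI-DMI level differed from SNI-Saline by -0.03 to 0.20 on the log2 scale. Without Sham-DMI replicates 2 and 4 the differences were -0.87, -0.40 and -0.33 for Ecel1, Sprr1a and Cckbr (adjusted p of 0.391, 0.812 and 0.751). A move toward 0 was fixed by leaving out the Sham-DMI mice in which these genes were highest.

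The relatives and binding partners of the 10 genes, 43 genes of which 37 passed the filter, were called in both directions. In SNI-Saline versus Sham-Saline 5 were called higher and 4 lower, 9 of 37 beside 12% of all genes, with a median log2 difference of -0.05. The higher ones were Sprr1b, Gadd45g (0.56, adjusted p = 0.00778), Gadd45b (0.38, adjusted p = 0.0268), Stmn2 (0.23, adjusted p = 0.0273) and Stmn3 (0.22, adjusted p = 0.0521, lost without Sham-Saline 1 or 3 or SNI-Saline 1 or 2). Sprr1b, the neighbour of Sprr1a by family, had 0 counts in all 8 sham libraries, which allows up to 0.0412 to 0.0749 CPM per library at a limit of 3 counts and for counting error only, against 6 to 18 counts in SNI-Saline and 1 to 13 in SNI-DMI (injury in saline mice, adjusted p = 0.0158). The lower ones were partners or paralogues of the guidance genes and of Ecel1: Flrt1 (-0.48, adjusted p = 0.0154), the latrophilin Adgrl3 (-0.43, adjusted p = 0.0154), Ece1 (-0.16, adjusted p = 0.0757) and Sema6d (-0.18, adjusted p = 0.0871), the last pair being lost on leaving out any 1 of 7 and 9 libraries.

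With DMI as well, relatives were called in both directions. In Sham-DMI versus Sham-Saline 4 of the 37 were called higher and 7 lower, beside 23.4% of all genes called, a background near which nothing particular to the relatives is read. The stathmins were higher, with Stmn3 at 0.35 (adjusted p = 0.00271), Stmn2 at 0.25 (adjusted p = 0.00671) and Stmn1 at 0.24 (adjusted p = 0.0339, lost without Sham-DMI 1), as was Gadd45g (0.37, adjusted p = 0.0193). The lower genes included Adgrl3 (-0.45, adjusted p = 0.00402) and Unc5d (-0.59, adjusted p = 0.0141), binding partners of Flrt3, its paralogue Flrt1 (-0.30, adjusted p = 0.0447, lost without Sham-Saline 3 or Sham-DMI 3 or 4), and Plxna2, a receptor of Sema6a (-0.29, adjusted p = 0.0388, lost without Sham-Saline 3 or Sham-DMI 1 or 4). Sema6d (-0.20, adjusted p = 0.0379, lost without Sham-Saline 3 or Sham-DMI 1), Nrcam of the L1 family (-0.23, adjusted p = 0.0427, 0.124 without Sham-DMI replicates 2 and 4) and Marcks (-0.24, adjusted p = 0.0641) were also lower, the last pair being lost on leaving out any 1 of 4 and 6 libraries. In SNI-DMI versus Sham-DMI 0 relatives were called by edgeR, beside 0.402% of all genes, with 8 under a nominal p of 0.05. DESeq2 called 2, and edgeR called 4 without Sham-DMI replicate 1, 3 without SNI-DMI replicate 3 and 1 without Sham-Saline 1 or SNI-Saline 2. In SNI-DMI versus SNI-Saline edgeR called only Stmn1 (0.26, adjusted p = 0.0973), beside 2.93% of all genes. This call was lost on leaving out any 1 of 12 libraries. There 10 relatives had a nominal p under 0.05 and DESeq2 called 5. Without Sham-DMI replicates 2 and 4, edgeR called 3 higher and 1 lower.

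Among 33 other genes of the injured neuron growth program, 32 of which passed the filter, 11 were called higher and 1 lower in SNI-Saline versus Sham-Saline, beside 12% of all genes. Those with the smallest p were Nts (2.78), Atf3 (2.32), Npy (5.41), Lgals1 (0.40) and Tubb6 (0.56), log2 differences throughout. In SNI-DMI versus Sham-DMI 5 were called, all higher, beside 0.402% of all genes: Atf3 (1.70, adjusted p = 0.00211), the neuropeptides Nts (1.49, adjusted p = 0.00548) and Npy (3.26, adjusted p = 0.0067), the tubulin Tubb6 (0.56, adjusted p = 0.0208, lost without SNI-DMI 1 or 4) and the macrophage growth factor Csf1 (0.50, adjusted p = 0.0881, lost on leaving out any 1 of 10 libraries). Without Sham-DMI replicates 2 and 4 Tubb6 (0.52, adjusted p = 0.227) and Csf1 (0.44, adjusted p = 0.408) lost their calls. Between the injured groups, where 2.93% of all genes were called, only the small heat shock protein Hspb1 was called (0.33 higher in SNI-DMI, adjusted p = 0.063, lost on leaving out any 1 of 7 libraries). In Sham-DMI versus Sham-Saline 8 were called higher and 4 lower, beside 23.4% of all genes, led by Lgals1 (0.37), Fgf2 (-0.44), Nts (1.24), Cacna2d1 (-0.57) and Anxa2 (0.27). Without Sham-DMI replicates 2 and 4 the difference of Nts was 0.75 (adjusted p = 0.0146), while the calls of Atf3 (0.69, adjusted p = 0.0391) and Npy (2.23, adjusted p = 0.0193) were lost, with differences of 0.28 (adjusted p = 0.455) and 0.84 (adjusted p = 0.466). The call of Il13ra1 (-0.30, adjusted p = 0.091) was lost too (adjusted p = 0.168). In the difference of injury effects 0 of these genes were called by edgeR or DESeq2, with 4 under a nominal p of 0.05, and 0 relatives were called by either tool, with 8 under it.

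The genes most like the 10 were sought by the Pearson correlation, over 16 libraries, of log2 CPM with the mean z-score of the 10 genes, among genes that are not of the 10. The highest were Atf3 (r = 0.988), Star (0.981), Ucn (0.967), Nts (0.959) and Hrk (0.957). Since injury separates the libraries, r was also taken within the 8 SNI libraries, where it was 0.960 for Atf3, 0.799 for Star, 0.748 for Ucn, 0.882 for Nts and 0.687 for Hrk, and within the 8 sham libraries, where it was 0.935, 0.890, 0.777, 0.835 and 0.863. Atf3 was 10.5 ± 2.16 CPM after sham surgery and 52.4 ± 1.6 CPM after SNI in saline mice, and 16.9 ± 5.11 and 55.2 ± 18.3 CPM in DMI mice (SD, n = 4). Its SD was larger in SNI-DMI than in SNI-Saline, as was that of each of the 10 genes. Ucn, the precursor of the peptide urocortin, was 0.0878 ± 0.0398, 1.48 ± 0.0661, 0.136 ± 0.107 and 1.69 ± 0.548 CPM in the same order. Among the 10 themselves r with their mean ran from 0.456 for Chl1 to 0.985 for Gpr151. All values come from the same libraries, and the correlations are a description without a test.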

How the data were processed

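DRGs of 16 mice were sequenced with 50-base paired-end reads from stranded mRNA libraries, 1 mouse per library. Per the labels, the authors aligned the reads to mm10 with HISAT2 and counted them per Ensembl gene with HTSeq, and their own tests used DESeq2. The deposited values are raw counts, with no normalization. Versions and the strand setting of the counting are not given in the sources used here. Of 52636 genes, 52489 were given a symbol by GENCODE M21 (GRCm38), also used for places and exon lengths. Depth was 41194238 to 73920332 reads on genes per library, 79.56% to 81.17% of reads, and only these entered the tests.

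Counts were fitted with edgeR 4.0.16 (R 4.3.3) after TMM scaling and edgeR's default filter, which left 21371 genes. All 16 libraries entered 1 quasi-likelihood fit with a coefficient per group. P-values were Benjamini-Hochberg adjusted over all genes and called under 0.1. CPM use TMM-scaled library sizes, and log2 CPM a prior count of 2. Groups and replicate numbers were taken from the labels. Each library is a separate mouse, so p-values measure the spread between mice.

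Of 200 genes changed in simulated counts for SNI-DMI versus Sham-DMI, with 21371 genes tested, 75% were called, and 11.2% of the 169 calls were false. Every changed gene was moved by a single fixed size, up or down, and genes were drawn independently. The share called therefore does not carry over to smaller changes or to genes that move together.

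Alternatives were upper-quartile scaling, no filter (38220 genes), at least 10 counts in every library (18011 genes), a replicate block, DESeq2 1.42.0, a fit of only the libraries compared, removal of smooth trends on GC content and exon length (mgcv 1.9.3), each library left out, and, chosen after seeing the data, Sham-DMI replicates 2 and 4 left out together. The members and gene lists were chosen with earlier results of these data known. The named genes were the 10 members, every called relative, the 5 called growth program genes with the smallest p per contrast and the 5 genes most like the members. Satellite glia, Schwann, macrophage, neutrophil, fibroblast and endothelial markers summed to 2013 to 2895, 3671 to 6485, 59.4 to 148, 3.8 to 50.7, 423 to 757 and 64 to 114 CPM over the libraries. Gpr151 and Sema6a lie on chromosome 18, of which no sequence is printed.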

Additional observations from a re-analysis of the deposited data

Results flagged for a closer look

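Of 40 groups of 4 mice examined, 4 held a single value far from the other 3 by Dixon's ratio at its 95% level, and chance alone would mark about 1 in 20 groups. Gpr151 was 2.19 CPM in Sham-Saline replicate 1, against 1.39 to 1.43 CPM in the others. Gap43 was 254 CPM in Sham-Saline replicate 2, against 231 to 235 CPM. In Sham-DMI replicate 1, Gap43 was 306 CPM against 273 to 277 CPM in the other mice, and Gadd45a was 21.7 CPM against 18 to 18.5 CPM. The library-to-library pattern of Sham-DMI replicates 2 and 4 does not appear among these, since a pair of high values lies too close together to be marked.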

How the results depend on the processing

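Over all genes, the number called in SNI-Saline versus Sham-Saline (2571) was 1039 with GC content and length trends removed and 688 to 3282 with single libraries left out. In SNI-DMI versus Sham-DMI (86) it was 517 with DESeq2, 216 with GC content and length trends removed, 310 without a filter, 9 in the 8 libraries compared, 31 without Sham-DMI replicates 2 and 4, and 23 to 549 with single libraries left out. In SNI-DMI versus SNI-Saline (626) it was 1898 with DESeq2, 51 with the trends removed, 1812 in the 8 libraries compared, 1355 without Sham-DMI replicates 2 and 4, and 0 to 1854 with single libraries left out. In Sham-DMI versus Sham-Saline (5010) it was 3307 to 6105, and for the difference of injury effects (0) it was 16 with DESeq2 and 0 to 1 with single libraries left out. Of the 10 genes, 8 were called in SNI-DMI versus Sham-DMI, 4 without Sham-DMI replicates 2 and 4, and 2 in the 8 libraries compared. The cause of these changes was not tested.

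Signs turned only in differences that were not called in the main edgeR fit of all 16 libraries. Of these, that of Chl1 in Sham-DMI versus Sham-Saline was called lower under some alternatives, as given above. With GC content and length trends removed, Chl1 was 0.025 in SNI-DMI versus SNI-Saline, 0.046 in Sham-DMI versus Sham-Saline and -0.020 in the difference of injury effects, and Flrt3 was 0.164 in Sham-DMI versus Sham-Saline, or 0.002 in the 8 libraries compared. Without Sham-DMI replicates 2 and 4, Gpr151 was -0.022 in that contrast and Gadd45a -0.054 in the difference of injury effects. With single libraries left out, SNI-DMI versus SNI-Saline ran from -0.272 to 0.124 for Ecel1, -0.257 to 0.095 for Gpr151, -0.039 to 0.305 for Cckbr and -0.056 to 0.376 for Sprr1a, Sham-DMI versus Sham-Saline from -0.073 to 0.104 for Flrt3, and the difference of injury effects from -0.059 to 0.093 for Gadd45a and -0.203 to 0.023 for Stmn4.

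Whether replicate numbers pair the mice cannot be decided from correlations of the deviations from group means. Same-number correlations ran from -0.081 to 0.184 over 24 pairs (median 0.000), 5 of them over 0.1. Those of different numbers ran from -0.248 to 0.169 over 72 pairs (median 0.002), 7 of them over 0.1. With the replicate number as a block, 172 genes were called in SNI-DMI versus SNI-Saline, and Gap43 lost its call in SNI-DMI versus Sham-DMI, as it also did with upper-quartile scaling and with the trends removed. The block changed no other call of the 10 genes.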
